A study of Mus musculus with 16 samples.

Results

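Macrophages from fat labelled knockout and visceral were compared with macrophages from fat labelled wild type and subcutaneous. The members are the 4 arrays with the source label KO-LysM VAT NCD and the 4 with the source label WT SAT NCD, which are 8 of the 16 arrays of the series. They were chosen by label alone. All mice were 19 to 21 weeks old and carried floxed Sucnr1 alleles. In the knockout, LysM-Sucnr1-/-, the Cre recombinase is driven by the lysozyme M promoter; the control, Sucnr1 flox/flox, is called wild type (WT) in the labels and carries no Cre by its name. Array titles also call the control samples untreated, and the labels do not spell out NCD. SAT is subcutaneous and VAT visceral adipose tissue. Each array carries RNA of a pool, 2 pools of each group on day 1 and 2 on day 2. The labels do not say how many mice a pool holds or whether pools of 1 genotype share mice. The p-values therefore measure the spread between pools. One label field describes selection with CD11b beads and another names F4/80+ cells. RNA came from 300000 cells and went through 24 cycles of amplification before hybridisation.

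SUCNR1 is a G protein-coupled receptor for succinate, an intermediate of the citric acid cycle that cells release when metabolism is disturbed. Macrophages carry the receptor, and succinate reaching it from outside the cell is one of the signals by which metabolism acts on inflammation in fat. The lysozyme M promoter is active in macrophages, monocytes and neutrophils, so Cre under its control deletes floxed sequence in those cells. Genotype and labelled depot both differ between the 2 groups, and their contributions to any difference given here cannot be told apart from these 8 arrays alone.

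The labels of depot were first set against genes that differ between the labelled depots. Among those named here only Sfrp2 is in a list of positional genes. Akr1c18 comes from the list of retinoid and steroid enzymes and was not among the genes set for a check of the labels. Akr1c18, which encodes a hydroxysteroid dehydrogenase that inactivates progesterone, had log2 values of 8.79, 8.99, 8.79 and 8.25 on the WT SAT arrays and 10.31, 9.99, 10.16 and 10.27 on the KO VAT arrays. Its group means in WT VAT and KO SAT were 4.91 and 5.26. The 2 groups compared here were thus both far above the other 2, and within a genotype the order of the labelled depots was opposite: VAT minus SAT was -3.79 in the wild type (adjusted p = 1.8e-09) and 4.93 in the knockout (adjusted p = 8.3e-12). Emx2, a homeobox gene of urogenital development, had the same arrangement, with means of 6.78 in WT SAT and 8.50 in KO VAT against 5.45 in WT VAT and 5.24 in KO SAT. So did Sfrp2, a secreted modulator of Wnt signalling high in stromal cells of subcutaneous fat, with means of 8.31, 9.69, 7.28 and 7.39 in that order. Emx2 was chosen after its values were seen, and so was Adh7, an alcohol dehydrogenase that oxidises retinol, whose means in the same order were 9.76, 9.97, 7.27 and 6.11. If the depot labels of 1 genotype had been exchanged, WT SAT and KO VAT would come from the same depot and their difference would be one of genotype. Whether they were exchanged was not tested.

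**Figure D1:**
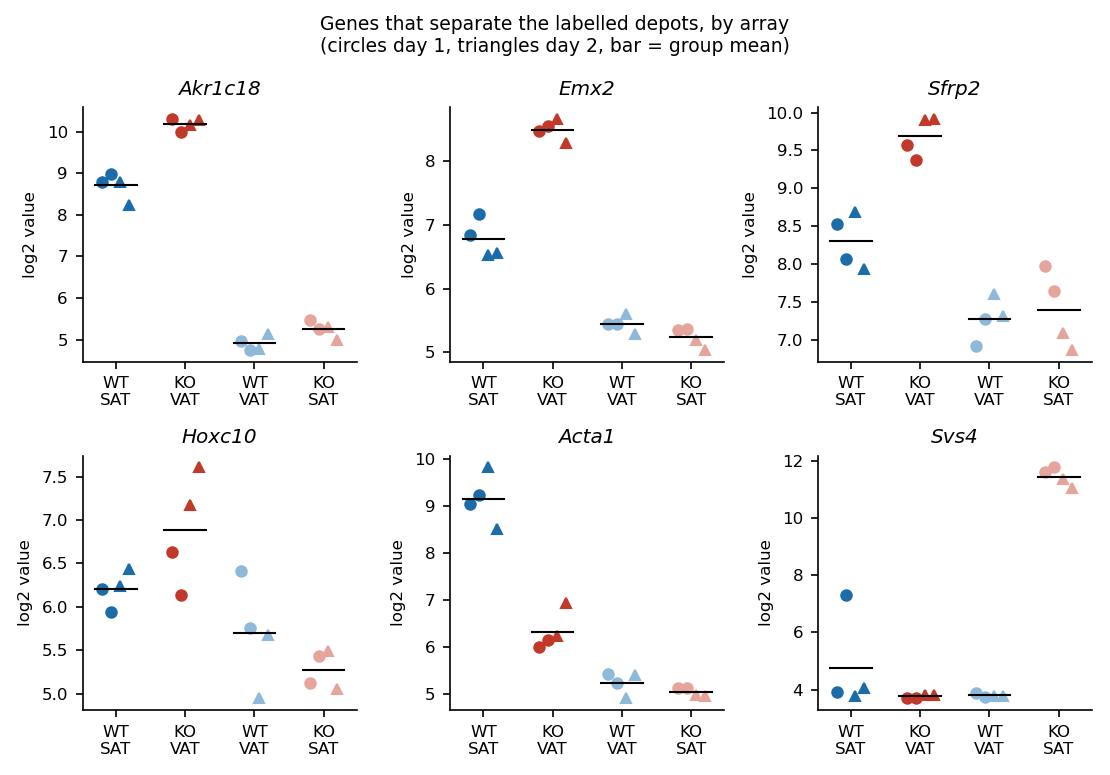
Log2 values of Akr1c18, Emx2, Sfrp2, Hoxc10, Acta1 and Svs4 on all 16 arrays, 1 panel per gene with its own vertical axis; each point is 1 array, circles are day 1 and triangles day 2, and bars are group means. For Akr1c18 and Emx2 every WT SAT and KO VAT array lies above every WT VAT and KO SAT array, for Sfrp2 WT SAT pool 4 at 7.94 lies just under KO SAT pool 1 at 7.97, and Svs4 is high on the 4 KO SAT arrays and on 1 WT SAT array, at 7.30.

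Taken as lists, the positional genes had mean levels that set WT SAT and KO VAT apart from the other groups, while single members varied. For subcutaneous position the mean level ran from 5.46 to 5.57 on the WT SAT arrays and from 5.61 to 5.82 in KO VAT. It ran from 5.21 to 5.45 in WT VAT and from 5.12 to 5.29 in KO SAT. For visceral position WT SAT and KO VAT were the lower groups, at 4.76 to 4.83 and 4.78 to 4.82. WT VAT was at 4.96 to 5.02 and KO SAT at 4.93 to 5.00. Of 12 measured genes of subcutaneous position 3 were higher and 2 lower in KO VAT, and of 14 genes of visceral position 3 were higher and 2 lower. In a fit with the spread of each array as a term, which is described with the array values, 3 and 1 were higher and 0 lower. Over all 17097 genes tested, 18.3% were higher and 21.0% lower at an adjusted p under 0.05. Hoxc10, a homeobox gene of the posterior body, had means of 6.21 in WT SAT and 6.89 in KO VAT against 5.70 in WT VAT and 5.27 in KO SAT; its difference of 0.68 ± 0.30 did not pass (adjusted p = 0.0798), and the groups overlapped. Thbd, which encodes the anticoagulant receptor thrombomodulin, did not share the arrangement of Akr1c18. Its WT SAT mean was 9.72 and the other 3 group means lay between 10.51 and 10.57. Nor did Hoxc8, another Hox gene, whose means in the order given for Hoxc10 were 4.56, 5.24, 5.09 and 5.66. Its VAT minus SAT was 0.53 in the wild type (adjusted p = 0.0175) and -0.42 in the knockout (adjusted p = 0.0403). Both signs were opposite to those of Akr1c18. Hoxd8 and Bnc2 were also lowest in WT SAT and highest in KO SAT. Gata6, a transcription factor in the visceral list, had means of 5.56 in WT SAT and 5.45 in KO VAT. Its means were higher in WT VAT and KO SAT, at 6.15 and 5.84. Its VAT minus SAT was 0.59 in the wild type (adjusted p = 0.014) and -0.40 in the knockout (adjusted p = 0.0776). En1 had higher means in WT SAT and KO VAT than in the other groups, but both were under background.

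Genes of skeletal muscle and of the seminal vesicle differed among the 4 groups as well, and the source of this RNA was not tested. The mean level of 20 skeletal muscle genes ran from 6.29 to 6.82 on the WT SAT arrays, from 5.19 to 5.54 in KO VAT, from 4.80 to 5.12 in WT VAT and from 4.69 to 4.89 in KO SAT. All 20 lay above background in WT SAT, but 13 of 20 in KO VAT. Background was set at 4.54, the 95th percentile of the mean values of 39 olfactory receptor genes. Several genes of the seminal vesicle, a male accessory gland, stood apart on the arrays labelled KO SAT, where Svs4 reached a mean of 11.44; Sbp, at 3.47 there, did not. In the groups compared here Svs4 was at 3.90, 7.30, 3.79 and 4.05 in WT SAT and at 3.69, 3.71, 3.81 and 3.82 in KO VAT. Svs6, Svs2 and Svs3a were at 4.65 or lower in both, apart from Svs6 at 5.09 in WT SAT pool 2, the pool in which Svs4 was high. Svs5 was well above background in both, with means of 9.07 in WT SAT and 8.15 in KO VAT, against 8.73 in WT VAT and 11.36 in KO SAT. It was the only 1 of 11 measured genes of this list that passed, with a change of -0.92 ± 0.19 (adjusted p = 0.00322), and it did not pass with array spread as a term (-0.39, adjusted p = 0.262).

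Macrophage identity was checked on 17 genes, all of them above background in both groups. Sucnr1 itself, the deleted gene, was at 3.54, 3.58, 3.52 and 3.54 in WT SAT and 3.59, 3.58, 3.53 and 3.41 in KO VAT, which is under the background level in every pool. Its difference was -0.02 ± 0.07 (adjusted p = 0.859), and its probe set cannot check the genotype labels.

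The 2 groups differed in 6717 of 17097 genes (39.3%), 3131 higher and 3586 lower in KO VAT. Of these, 603 changed at least 2-fold, 515 upward and 88 downward. Errors of log2 differences are standard errors of the limma fit with 4 arrays in each group, and the median difference of all genes was -0.08. On day 1 alone 1702 genes passed (1126 higher, 576 lower) and on day 2 alone 5948 (3157 higher, 2791 lower). Of the 6717, 6716 had the same sign on both days. No gene passed a test of the difference between days (limma, 846 genes at an unadjusted p under 0.05). The 4 values of one group lay outside the range of the other in 6796 genes (39.7%), among them 5369 of the 6717 that passed. A lack of overlap in a gene named below therefore adds little to its call. Without WT SAT pool 4 the number that passed was 3851, and without KO VAT pool 1 it was 4053. At background level in both groups were 973 of the genes that passed, and 766 were there in 1 group, so that their fold change has no exact size.

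The arrays also differed in a property of the whole distribution. The interquartile range of all values on an array was 2.20 ± 0.08 log2 units in WT SAT (SD, n = 4; 2.12 to 2.29) and 2.49 ± 0.11 in KO VAT (SD, n = 4; 2.36 to 2.62). The difference was 0.29, the groups did not overlap, and the exact permutation test gave p = 0.0286, two-sided, the smallest that the 70 splits allow; it was 0.21 on day 1 and 0.36 on day 2. The direction of the differences followed the level of the gene. With genes divided by mean level into 5 bins of equal size, the lowest bin had 2.43% of genes higher and 19.1% lower in KO VAT, and the highest bin 38.7% higher and 8.30% lower. With the interquartile range of each array as a term in the fit, 1859 genes passed, 595 higher (3.48%) and 1264 lower (7.39%). In the highest bin 164 were then higher and 772 lower. Both fits called 951 genes, 541 higher and 409 lower in both, and 1 in opposite directions. Because the spread is nearly the same as the grouping on these 8 arrays, spread and group cannot be told apart on them; the term is estimated with the help of the other 8 arrays. The numbers that passed with this term, called the spread term from here, are therefore given beside the first.

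**Figure D2:**
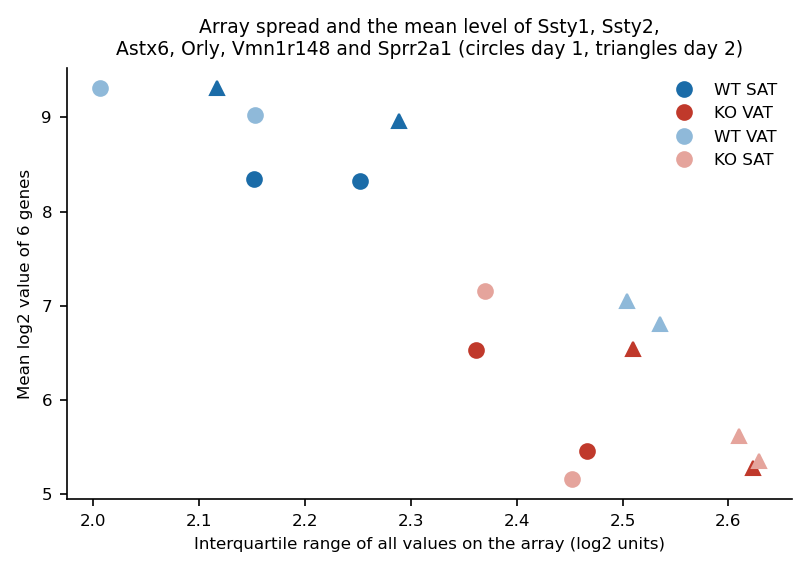
Interquartile range of all log2 values on each of the 16 arrays (horizontal) against the mean log2 value of 6 genes, Ssty1, Ssty2, Astx6, Orly, Vmn1r148 and Sprr2a1 (vertical); colours are the 4 groups, circles day 1 and triangles day 2. The 4 WT SAT arrays lie between 2.12 and 2.29 and the 4 KO VAT arrays between 2.36 and 2.62, and the 6 genes are low where the spread is wide.

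Among the 12 genes with the largest rises were genes of desmosomes, sterol and fatty acid synthesis, prostaglandin synthesis and matrix. Dsp, which encodes desmoplakin, the protein that ties keratin filaments to desmosomes, was at 4.98, 4.47, 5.89 and 4.69 in WT SAT and 7.62, 7.65, 9.27 and 8.46 in KO VAT. It rose by 3.24 ± 0.35 (adjusted p = 5.34e-05), 2.91 on day 1 and 3.57 on day 2, and by 3.59 with the spread term. Its other 2 probe sets were under background in WT SAT, 1 of them in KO VAT too, and give no exact size. Perp, a membrane protein of desmosomes, was at 4.39, 4.09, 5.12 and 4.17 in WT SAT and 7.18, 5.88, 8.47 and 7.58 in KO VAT. Its WT SAT mean was under background, so the rise of 2.84 ± 0.39 has no exact size. Krt14, a keratin of basal epithelial cells, rose by 1.39 ± 0.18 (adjusted p = 0.000171), from a mean of 4.81 to 6.19, while WT VAT and KO SAT stood at 4.76 and 4.70. These 3 genes were higher on every KO VAT array than on any WT SAT array, beside 39.7% of all genes without overlap in either direction. Of the 17 measured genes of mammary and skin epithelium, however, 3 were higher and 2 lower, with a median of -0.10; the genes above background were 13 in WT SAT and 14 in KO VAT. With the spread term 2 were higher and 0 lower.

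The rest of the largest rises covered several functions. Prss23, a serine protease, rose by 2.93 ± 0.37, and its other 2 probe sets were under background in WT SAT, 1 of them in KO VAT too. Its KO VAT mean of 7.57 stood beside 6.64 in WT VAT and 7.11 in KO SAT. Lgi2, a secreted leucine-rich repeat protein, rose by 2.24 ± 0.18, with 5.65, 5.32, 5.26 and 4.75 in WT SAT and 7.54, 7.30, 7.68 and 7.43 in KO VAT. Abi3bp, an extracellular matrix protein, rose by 2.01 ± 0.18 from a WT SAT mean under background. Tshz1, a zinc finger transcription factor, rose by 2.11 ± 0.29 and Kif21a, a kinesin motor, by 2.06 ± 0.21, with a second probe set of Tshz1 at 0.63; the other probe sets of Kif21a were under background in both groups. Prg4, which encodes the lubricant proteoglycan lubricin and is also a gene of large peritoneal macrophages, was at 5.69, 4.91, 5.61 and 4.68 in WT SAT and 7.43, 7.21, 7.67 and 7.34 in KO VAT. It rose by 2.19 ± 0.23 (adjusted p = 4.27e-05), with no overlap. Serpinb2, the plasminogen activator inhibitor type 2, rose by 2.16 ± 0.46 (adjusted p = 0.00325) but did not pass with the spread term (1.04, adjusted p = 0.237). Gata6, the transcription factor that large peritoneal macrophages depend on, did not differ beyond its spread, at -0.11 ± 0.12 (adjusted p = 0.448). Of 16 genes of peritoneal macrophages 3 were higher and 2 lower, with a median of -0.16; with the spread term 2 were higher and 1 lower.

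**Figure D3:**
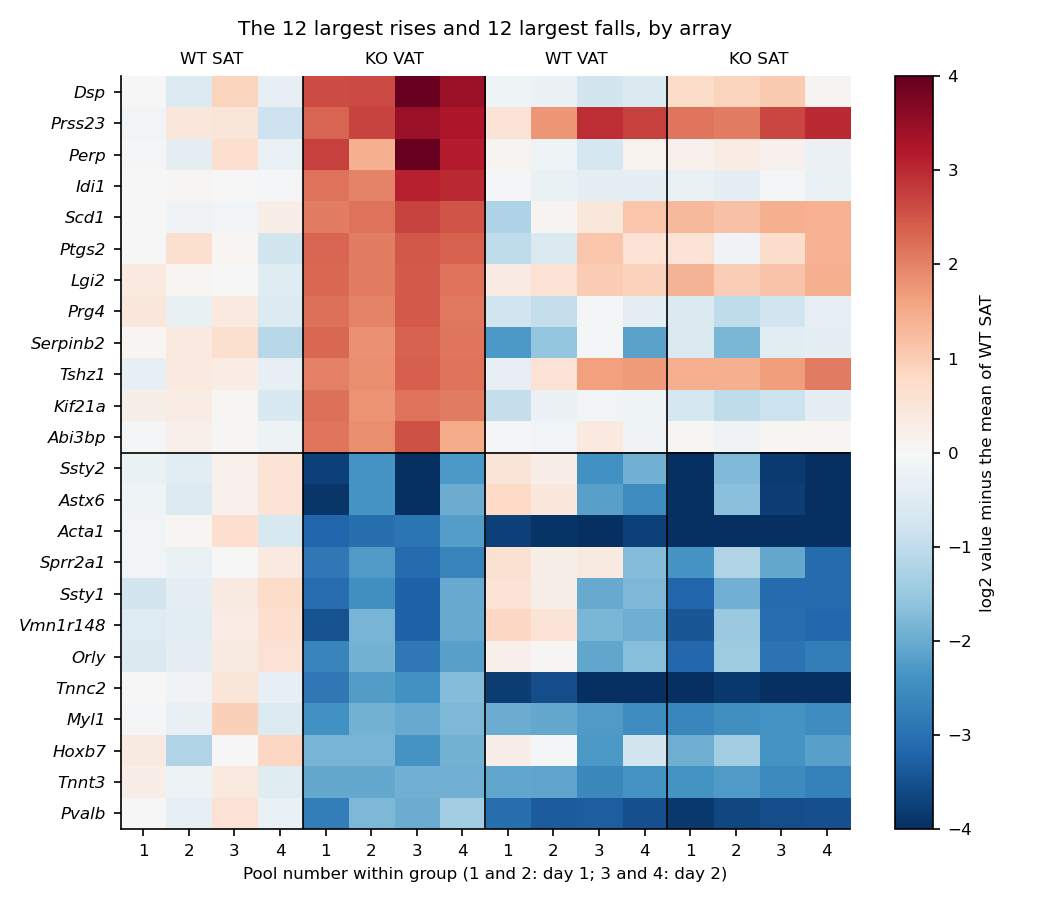
The 12 genes with the largest rises (above the line) and the 12 with the largest falls (below) on all 16 arrays, coloured by the log2 value minus the mean of the 4 WT SAT arrays; colours end at 4 and -4, and pools 1 and 2 are day 1, pools 3 and 4 day 2. Dsp, Perp and Idi1 are raised on the KO VAT arrays and not on those of WT VAT, while Ssty2, Astx6, Ssty1, Vmn1r148 and Orly are low on KO VAT and KO SAT arrays and on WT VAT pools 3 and 4.

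Of the 12 largest falls, all but Hoxb7 were of 2 kinds. Contractile genes of skeletal muscle made up 5 of the 12: Acta1, Tnnc2, Myl1, Tnnt3 and Pvalb. Acta1, the actin of skeletal muscle, was at 9.05, 9.23, 9.84 and 8.51 in WT SAT and 5.999, 6.15, 6.24 and 6.94 in KO VAT. It fell by 2.83 ± 0.24 on the log2 scale (adjusted p = 1.09e-05), and the groups did not overlap. Tnnc2, the calcium-binding troponin of fast muscle, changed by -2.31 ± 0.30 and Atp2a1, the calcium pump of fast muscle, by -1.97 ± 0.20. Of the 20 muscle genes 18 were lower and 0 higher, with a median of -0.999; with the spread term 11 were lower and 0 higher, with a median of -0.86. Acta1 on the KO VAT arrays still lay above its means of 5.25 in WT VAT and 5.05 in KO SAT.

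The second kind were multicopy genes of the sex chromosomes and of other repeated families, whose probe sets can hybridise to several copies. Ssty2, a spermatid gene with many copies on the Y chromosome, was at 9.03, 8.86, 9.49 and 9.84 in WT SAT and 5.56, 6.94, 4.99 and 7.02 in KO VAT. Its change of -3.18 ± 0.71 passed (adjusted p = 0.00433) but not with the spread term (-0.97, adjusted p = 0.404). Astx6 (-3.05), Ssty1 (-2.70), Vmn1r148 (-2.65) and Orly (-2.40) lost the call with the spread term in the same way, and so did the homeobox gene Hoxb7 (-2.00). Sprr2a1, a cornified envelope protein, kept it at -1.66 (adjusted p = 0.0307). The mean level of Ssty1, Ssty2, Astx6, Orly, Vmn1r148 and Sprr2a1 followed the interquartile range of the array with r = -0.89 over 16 arrays, -0.90 over the 8 arrays compared, and -0.82 after group means were removed. These genes were picked from the falls and the arrays share their groups, so the correlations are a description.

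Cholesterol is made from acetyl-CoA by a chain of enzymes that the transcription factor SREBP2 turns on together when cell sterol falls. Of 18 measured genes of the pathway 5 were higher and 0 lower, with a median of 0.10; with the spread term 2 were higher. Idi1, the isomerase that makes dimethylallyl diphosphate, was at 4.60, 4.63, 4.58 and 4.50 in WT SAT and 6.75, 6.56, 7.69 and 7.55 in KO VAT. It rose by 2.56 ± 0.18 (adjusted p = 4.18e-06), or 5.90-fold, 2.04 on day 1 and 3.08 on day 2, and by 2.70 with the spread term. Its WT SAT mean of 4.58 lay just above the background of 4.54, with pool 4 under it, so the fold starts near background. Its second probe set was under background in WT SAT. The 4 KO VAT pools stood alone, since the mean was 4.30 in WT VAT and 4.34 in KO SAT, both under background. The step from KO SAT to KO VAT was 2.80 (adjusted p = 2.3e-07) and therefore has no exact size. Cyp51, the lanosterol demethylase, rose by less, 0.84 ± 0.15 (adjusted p = 0.00143), from 7.56, 7.55, 7.29 and 7.60 to 8.37, 8.45, 8.19 and 8.35, and did not pass with the spread term (0.50, adjusted p = 0.0933). Sc5d, the sterol desaturase, rose by 0.71 ± 0.20 (adjusted p = 0.0135; 0.31 and 0.498 with the spread term). The difference of Idi1 was the largest of the list, and 13 of 18 members did not pass.

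The promoters of Idi1 and Cyp51 are shown because they are the sterol genes of the smallest p. Sterol gene promoters are known to pair SREBP sites with CCAAT boxes bound by NF-Y. The letters CCAAT and their reverse complement ATTGG were searched on 300 bases, 250 before and 50 after each start, in RefSeq sequence of build GRCm38.p6. They were found in 37.4% of 32851 such windows. Of the 18 sterol genes 15 had at least 1 window, 17 windows in all, of which 15 held a match; 2 of the 3 windows of Dhcr7 held none. Each of the 15 genes had a match in at least 1 window, among them the 4 of the 5 risen genes that had a window. The Idi1 window, chr13:8885356-8885655 on the plus strand, held 2 matches, both on the strand opposite the gene, and the Cyp51 window, chr5:4104648-4104947 on the minus strand, held 1 on the strand of the gene. Genes that did not pass held matches too, so that the letters do not separate Idi1 from the rest. Both are written 5′ to 3′ on the strand of the gene, with the matches in capitals.
Idi1: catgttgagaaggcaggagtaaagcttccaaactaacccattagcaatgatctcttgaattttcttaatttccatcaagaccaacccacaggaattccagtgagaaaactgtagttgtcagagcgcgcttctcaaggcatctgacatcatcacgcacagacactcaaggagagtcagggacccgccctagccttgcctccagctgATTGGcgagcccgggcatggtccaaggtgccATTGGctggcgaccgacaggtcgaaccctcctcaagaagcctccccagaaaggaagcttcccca
Cyp51: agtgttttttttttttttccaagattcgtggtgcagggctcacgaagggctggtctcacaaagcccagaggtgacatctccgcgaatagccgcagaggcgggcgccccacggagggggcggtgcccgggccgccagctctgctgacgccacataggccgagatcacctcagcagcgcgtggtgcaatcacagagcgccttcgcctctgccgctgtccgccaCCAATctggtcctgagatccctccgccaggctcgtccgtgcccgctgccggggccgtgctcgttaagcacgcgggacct

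Fatty acid synthesis and desaturation genes, which make long chain lipids from acetyl-CoA and are targets of SREBP1 and LXR, were higher in 8 of 12 and lower in 0, with a median of 0.40. Of the 12, 8 lie in the bin of the highest level, where 38.7% of genes were higher. After quantile normalization 4 were higher and 1 lower, with a median of 0.12. With the spread term 2 were higher and 1 lower, with a median of 0.17. Scd1, the desaturase that makes oleate from stearate, was at 7.12, 6.96, 6.999 and 7.37 in WT SAT and 9.16, 9.29, 9.81 and 9.64 in KO VAT. It rose by 2.36 ± 0.28 (adjusted p = 0.000111), or 5.15-fold, and by 1.68 with the spread term; its second probe set rose by 2.00. Elovl6, the elongase that extends palmitate to stearate, was at 6.19, 6.18, 6.33 and 5.68 in WT SAT and 7.98, 7.79, 8.06 and 7.86 in KO VAT. It rose by 1.83 ± 0.19 (adjusted p = 4.37e-05) and by 1.22 with the spread term (adjusted p = 0.00036). The groups did not overlap in either gene, nor did they in 39.7% of all genes. Elovl6 in KO VAT also lay above WT VAT (1.51, adjusted p = 0.00022) and KO SAT (1.38, adjusted p = 0.00057). Me1, the malic enzyme that supplies NADPH, rose by 1.00 ± 0.23 and Elovl5, an elongase of polyunsaturated fatty acids, by 0.59 ± 0.12; neither passed with the spread term (0.14 and 0.41).

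**Figure D4:**
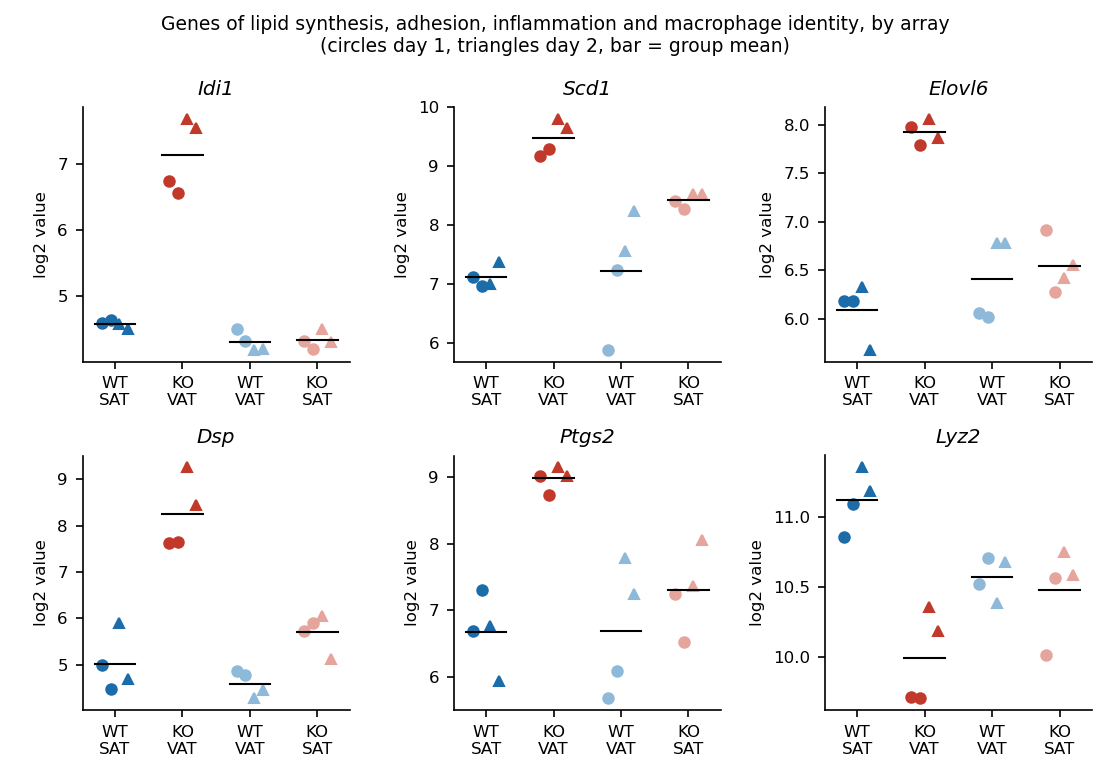
Log2 values of Idi1, Scd1, Elovl6, Dsp, Ptgs2 and Lyz2 on all 16 arrays, 1 panel per gene with its own vertical axis; each point is 1 array, circles are day 1 and triangles day 2, and bars are group means. The 4 KO VAT arrays lie above all 12 others in the first 5 panels, and for Lyz2 the KO VAT mean of 9.99 is the lowest and the WT SAT mean of 11.12 the highest of the 4.

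Enzymes of retinoid and steroid metabolism were higher in 6 of 15 and lower in 1, with a median of 0.49; with the spread term 5 were higher and 0 lower, with a median of -0.04. Adh1, an alcohol dehydrogenase that oxidises retinol, was at 6.04, 6.40, 6.21 and 6.43 in WT SAT and 7.76, 7.55, 8.23 and 8.40 in KO VAT, a rise of 1.72 ± 0.19 (adjusted p = 6.2e-05). Aldh1a1, which makes retinoic acid from retinal, rose by 1.38 ± 0.11 (adjusted p = 7.69e-06) from a WT SAT mean of 4.1996, which is under background. Cyp26b1, which breaks retinoic acid down, was at 6.72, 6.44, 6.22 and 6.12 in WT SAT and 7.21, 7.35, 7.06 and 7.39 in KO VAT and rose by 0.88 ± 0.15 (adjusted p = 0.000963). Enzymes that make and enzymes that degrade retinoic acid were thus both higher. Akr1c18, given above for the labels, rose by 1.48 ± 0.15 (adjusted p = 3.11e-05), and all 4 enzymes passed with the spread term.

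Genes of prostaglandin and leukotriene synthesis moved in both directions. Pla2g4a, the phospholipase that frees arachidonic acid, was at 6.34, 6.90, 6.68 and 6.05 in WT SAT and 8.02, 7.74, 8.00 and 7.79 in KO VAT and rose by 1.39 ± 0.21 (adjusted p = 0.000455). Ptgs2, the inducible cyclooxygenase, was at 6.69, 7.30, 6.77 and 5.94 and at 9.02, 8.73, 9.15 and 9.02 and rose by 2.30 ± 0.38 (adjusted p = 0.000755). It rose by 0.93 with the spread term (adjusted p = 0.0185), and its second probe set rose by 0.87. Ptger4, the EP4 receptor for prostaglandin E2, rose by 0.60 ± 0.09 (adjusted p = 0.000337). Alox5ap, the protein that presents arachidonic acid to 5-lipoxygenase for leukotrienes, fell by 0.73 ± 0.15 on the log2 scale (adjusted p = 0.00308). Of 15 genes of both branches 5 were higher and 5 lower; with the spread term 3 were higher and 2 lower. The median of the 15 was 0.26 and fell to -0.03 after arrays were centred and scaled to 1 interquartile range.

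NF-kB driven cytokines and their feedback regulators were higher in 6 of 16 and lower in 3, with a median of 0.04; with the spread term 3 were higher and 3 lower. Cxcl1, a neutrophil attractant, was at 9.11, 8.95, 9.27 and 8.69 in WT SAT and 10.31, 10.28, 10.39 and 10.26 in KO VAT, a rise of 1.31 ± 0.17 (adjusted p = 0.000183). Mean Cxcl1 was 10.02 in WT VAT and 10.28 in KO SAT, so WT SAT was the group that stood apart. Nfkbiz, a nuclear IkB protein that directs NF-kB to secondary response genes, rose by 1.88 ± 0.26 (adjusted p = 0.00029) and by 1.00 with the spread term. Cxcl2, a related attractant, rose by 0.58 ± 0.10 (adjusted p = 0.000923), but not with the spread term (0.36, adjusted p = 0.0555).

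Genes of core macrophage identity moved the other way. Of 17 measured, 14 were lower and 0 higher in KO VAT, with a median of -0.72, although 12 of them lie in the bin of the highest level, where the median difference was 0.28. With the spread term 15 were lower, with a median of -0.94. Their mean level ran from 8.70 to 9.16 on the WT SAT arrays and from 7.93 to 8.59 in KO VAT, against 8.08 to 9.10 in WT VAT and 8.48 to 8.99 in KO SAT. In such bulk samples, fewer macrophages in the pool and less RNA of these genes in each macrophage cannot be told apart. Lyz2, the lysozyme M gene, in whose locus Cre sits in the widely used LysM-Cre line, was at 10.86, 11.09, 11.36 and 11.18 in WT SAT and 9.72, 9.71, 10.36 and 10.19 in KO VAT. Its change was -1.13 ± 0.14 (adjusted p = 0.000165), and -0.99 with the spread term (adjusted p = 0.00376). Fcgr3, a low affinity receptor for IgG, was at 8.35, 8.57, 8.87 and 8.57 and at 7.10, 7.11, 7.98 and 7.55, a change of -1.15 ± 0.16 (adjusted p = 0.000249). Cd68, a glycoprotein of macrophage lysosomes, changed by -0.72 ± 0.10 and C1qc, a chain of complement C1q, by -1.18 ± 0.22. Each of these 4 genes was lower on every KO VAT array than on any WT SAT array, beside 39.7% of all genes without overlap in either direction.

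Genes of resident macrophages were lower in 9 of 20 and higher in 1, with a median of -0.43; with the spread term 7 were lower. Fcna, which encodes ficolin A, a lectin that starts complement, was at 7.36, 7.75, 7.75 and 7.75 in WT SAT and 5.19, 5.50, 6.15 and 6.01 in KO VAT. It fell by 1.94 ± 0.16 on the log2 scale (adjusted p = 7.69e-06), yet stood above its means of 5.33 in WT VAT and 5.04 in KO SAT. Folr2, the folate receptor of tissue-resident macrophages, changed by -1.17 ± 0.13 (adjusted p = 7.41e-05), and Pf4, the chemokine platelet factor 4, by -0.50 ± 0.10 (adjusted p = 0.00201). Folr2 was at 8.30, 8.62, 8.76 and 8.48 in WT SAT and at 7.17, 7.29, 7.54 and 7.48 in KO VAT, without overlap.

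Genes of lipid-associated macrophages, the cells that take up lipid around dying adipocytes, were lower in 10 of 18 and higher in 1, with a median of -0.34; with the spread term 9 were lower and 0 higher. Gpnmb, a glycoprotein of lysosome-rich macrophages, was at 10.68, 10.99, 11.08 and 10.94 in WT SAT and 9.83, 9.59, 10.12 and 10.16 in KO VAT, a change of -0.998 ± 0.11 (adjusted p = 6.82e-05). Trem2, a lipid receptor of these cells, was at 6.76, 6.97, 6.99 and 6.36 and at 5.73, 5.39, 5.77 and 5.82, a change of -1.10 ± 0.22 (adjusted p = 0.0025). Cd36, a scavenger receptor for fatty acids, changed by -0.89 ± 0.15 (adjusted p = 0.000974). Lysosomal genes were lower in 11 of 16 and higher in 1; with the spread term 9 were lower and 1 higher. Among them Ctsa and Ctsd, a carboxypeptidase and an aspartic protease of the lysosome, changed by -0.80 ± 0.12 and -0.59 ± 0.12, and Lamp2, a lysosomal membrane protein, rose by 0.83 ± 0.13.

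MHC class II presentation genes were lower in 11 of 12 and higher in 0, with a median of -0.42; with the spread term 4 were lower. H2-DMb2, a chain of the chaperone that loads peptides, was at 7.49, 7.78, 7.58 and 7.70 in WT SAT and 6.45, 6.34, 6.77 and 6.55 in KO VAT, a change of -1.11 ± 0.12 (adjusted p = 6.91e-05). Cd74, the invariant chain, was at 10.29, 10.38, 10.52 and 10.49 and at 9.52, 9.42, 10.23 and 9.98, a change of -0.63 ± 0.13 (adjusted p = 0.00275). In WT VAT and KO SAT the Cd74 means were 10.48 and 10.69, so KO VAT was the lowest of the 4 groups.

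Genes induced by interleukin-4, the signal of alternative activation, went both ways, with 5 higher and 5 lower of 21 and a median of -0.17. With the spread term 2 were higher and 5 lower. Clec10a, a galactose lectin, was at 9.84, 10.001, 10.25 and 9.74 in WT SAT and 8.69, 8.16, 9.14 and 8.94 in KO VAT, a change of -1.23 ± 0.22 (adjusted p = 0.00139). Klf4 and Egr2, transcription factors induced by interleukin-4 and by other stimuli, rose by 1.08 ± 0.13 (adjusted p = 0.000118) and 1.01 ± 0.14 (adjusted p = 0.000228). Their KO VAT values, 8.19, 8.01, 8.84 and 8.63 for Klf4 and 9.48, 9.52, 9.84 and 9.63 for Egr2, lay above all WT SAT values.

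Complement genes went both ways. The 3 C1q chains and both anaphylatoxin receptors were lower. C5ar1, the receptor for C5a, was at 10.65, 10.77, 10.80 and 10.72 in WT SAT and 9.70, 9.32, 10.07 and 10.02 in KO VAT, a change of -0.96 ± 0.14 (adjusted p = 0.000313). Cfp, properdin, which stabilises the alternative pathway convertase, changed by -0.94 ± 0.14 (adjusted p = 0.000404). C1s1, the serine protease of the C1 complex, rose by 1.49 ± 0.27 (adjusted p = 0.00121), but not with the spread term (0.54, adjusted p = 0.0665). In all 7 of 15 were higher and 6 lower with a median of 0.05; with the spread term 0 were higher and 8 lower. The median was -0.28 after quantile normalization and -0.31 after scaling to 1 interquartile range, so the list has no settled direction.

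The counts of interferon and chemokine genes stand beside 18.3% higher and 21.0% lower over all genes. Of 19 type I interferon response genes 3 were higher and 2 lower with a median of 0.08, and with the spread term 0 were higher and 7 lower; after quantile normalization 1 was higher and 8 lower, with a median of -0.14. Of 10 interferon gamma GTPases and Irf1, 4 were higher and 2 lower with a median of 0.40; with the spread term 2 were higher and 1 lower, with a median of -0.018. Iigp1, a GTPase that attacks pathogen vacuoles, rose by 1.16 ± 0.19 (adjusted p = 0.000823), from 7.23, 7.32, 7.18 and 7.30 to 8.32, 8.22, 8.73 and 8.41. Its means were 8.20 in WT VAT and 8.63 in KO SAT. Gbp3, a guanylate binding protein, rose by 1.27 ± 0.22 (adjusted p = 0.00111), to a KO VAT mean of 6.15 beside 6.26 in WT VAT and 6.95 in KO SAT. Of 8 chemokines that draw T cells 1 was higher and 2 lower, and with the spread term 0 were higher and 1 lower. Cxcl16 was lower (-0.55 ± 0.09, adjusted p = 0.000907), and Cxcl10 was higher by 0.72 ± 0.14 (adjusted p = 0.0018) but not with the spread term (0.28, adjusted p = 0.151). Mean Cxcl10 was 8.04 in WT SAT and 8.76 in KO VAT, below 9.81 in WT VAT and 10.09 in KO SAT. Of 10 chemokines of monocytes and eosinophils 3 were lower and 0 higher, and with the spread term the counts were 3 and 0. Ccl8 changed by -0.73 ± 0.20 (adjusted p = 0.0124), with 9.25, 9.58, 9.99 and 9.58 in WT SAT and 8.62, 8.57, 9.27 and 9.03 in KO VAT, which overlap, and it stood at 6.66 in WT VAT and 6.75 in KO SAT.

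Receptors that sense metabolites, a group by function to which SUCNR1 belongs, were lower in 4 of 13 and higher in 0, with a median of -0.23. Of the 13, 6 lie in the bin of the lowest level and 4 in the next bin. In those bins 19.1% and 32.9% of all genes were lower. With the spread term 2 receptors were lower. Of the 13, 7 were under background in both groups. The 4 include Hcar1 and P2ry12, under background in both groups, and Adora3, under it in KO VAT; these 3 did not pass with the spread term. P2rx7, the channel opened by extracellular ATP, was at 8.92, 8.98, 9.10 and 8.92 in WT SAT and 7.92, 7.93, 8.40 and 8.10 in KO VAT, a change of -0.89 ± 0.18 (adjusted p = 0.00295), and -1.41 with the spread term. The enzymes that make and use succinate inside the cell, with the rest of the citric acid cycle, were higher in 9 of 21 and lower in 2. Of the 21, 12 lie in the bin of the highest level, where 38.7% of genes were higher. With the spread term 1 was higher and 3 lower. Sdhd, a membrane subunit of succinate dehydrogenase, rose by 0.69 ± 0.10 (adjusted p = 0.000444) from a WT SAT mean of 4.39, under background. Suclg2, a subunit of the succinyl-CoA ligase that makes succinate, rose by 0.71 ± 0.13 (adjusted p = 0.00173), but not with the spread term (0.43, adjusted p = 0.107). Idh2, the mitochondrial isocitrate dehydrogenase, fell by 0.45 ± 0.09 on the log2 scale (adjusted p = 0.00291). Of 26 genes of the respiratory chain 9 were higher and 0 lower, with a median of 0.30. With the spread term 1 was higher and 5 lower, and after scaling to 1 interquartile range 1 was higher and 10 lower with a median of -0.18; 25 of the 26 lie in the bin of the highest level. Uqcrb, a subunit of complex III, was at 6.89, 6.90, 7.03 and 7.01 in WT SAT and 7.84, 7.83, 8.24 and 8.07 in KO VAT, a rise of 1.04 ± 0.15 (adjusted p = 0.00029). Its means were 7.60 in WT VAT and 7.93 in KO SAT.

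Hypoxia genes, which succinate can act on through the stability of HIF1A, were higher in 7 of 14 and lower in 2, with a median of 0.52. Of the 14, 8 lie in the bin of the highest level, where 38.7% of genes were higher. After scaling to 1 interquartile range 5 were higher and 1 lower, with a median of 0.07. With the spread term 1 was higher, with a median of 0.10. That gene was Egln3, a prolyl hydroxylase that marks HIF1A for degradation, at 5.58, 5.20, 5.38 and 5.26 in WT SAT and 6.59, 6.47, 7.13 and 7.02 in KO VAT. It rose by 1.45 ± 0.16 (adjusted p = 6.91e-05). Hif1a itself rose by 0.81 ± 0.14 (adjusted p = 0.00111), from 8.90, 9.15, 9.31 and 9.15 to 9.80, 9.80, 10.13 and 10.03, and by 0.46 with the spread term (adjusted p = 0.0774). Adm, the vasodilator peptide adrenomedullin, rose by 0.99 ± 0.20 (adjusted p = 0.00229; 0.36 and 0.211 with the spread term). Genes of the unfolded protein response were higher in 9 of 20 and lower in 1. Of the 20, 14 lie in the bin of the highest level, where 38.7% of genes were higher. With the spread term 1 was higher and 4 lower, and after scaling 5 were higher and 5 lower. Hspa5, the chaperone BiP of the endoplasmic reticulum, rose by 1.21 ± 0.18 (adjusted p = 0.000371), from 7.68, 7.98, 7.98 and 7.76 to 9.05, 8.96, 9.20 and 9.05. Its means were 8.41 in WT VAT and 8.93 in KO SAT.

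Markers of other cells of fat moved with the groups, and their part in the differences above was not tested. Stromal progenitor genes were higher in 11 of 18 and lower in 0, with a median of 0.76; with the spread term 6 were higher, with a median of 0.35. Their mean level ran from 6.65 to 6.9995 in WT SAT, 7.53 to 7.68 in KO VAT, 7.27 to 7.97 in WT VAT and 7.39 to 7.77 in KO SAT. Dpt, the matrix protein dermatopontin, was at 7.37, 7.37, 7.72 and 6.67 in WT SAT and 9.06, 9.12, 9.08 and 9.16 in KO VAT and rose by 1.82 ± 0.26 (adjusted p = 0.000307). Its means were 8.72 in WT VAT and 8.92 in KO SAT. Igfbp6, an IGF-binding protein, rose by 1.17 ± 0.14 (adjusted p = 0.000111) from 6.17 to 7.34, while WT VAT and KO SAT were at 6.44 and 6.09. Postn, the matrix protein periostin, rose by 0.96 ± 0.12 (adjusted p = 0.000142). Collagen genes were higher in 8 of 15 and lower in 0, but with the spread term 0 were higher and 0 lower. Endothelial genes were higher in 2 of 19 and lower in 1; with the spread term 2 were higher and 0 lower.

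Most lymphocyte genes that passed were lower. T cell genes were lower in 9 of 14 and higher in 1, with a median of -0.48 and mean levels of 5.65 to 5.95 in WT SAT, 5.14 to 5.42 in KO VAT, 5.06 to 5.35 in WT VAT and 4.82 to 5.05 in KO SAT; with the spread term 2 were lower. Cd3d, a chain of the T cell receptor complex, was at 6.39, 6.24, 6.47 and 6.31 in WT SAT and 5.45, 5.18, 5.63 and 5.73 in KO VAT, a change of -0.86 ± 0.13 (adjusted p = 0.000457). Cd3g, another chain, changed by -1.19 ± 0.20 (adjusted p = 0.000852). B cell genes were lower in 6 of 12 and higher in 1, with mean levels of 5.80 to 6.18 in WT SAT and 5.43 to 5.93 in KO VAT; with the spread term 1 was higher and 0 lower. The gene that rose was Ebf1, a transcription factor of B cells that stromal and fat precursors also use, by 1.22 ± 0.15 (adjusted p = 0.000125).

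**Figure D5:**
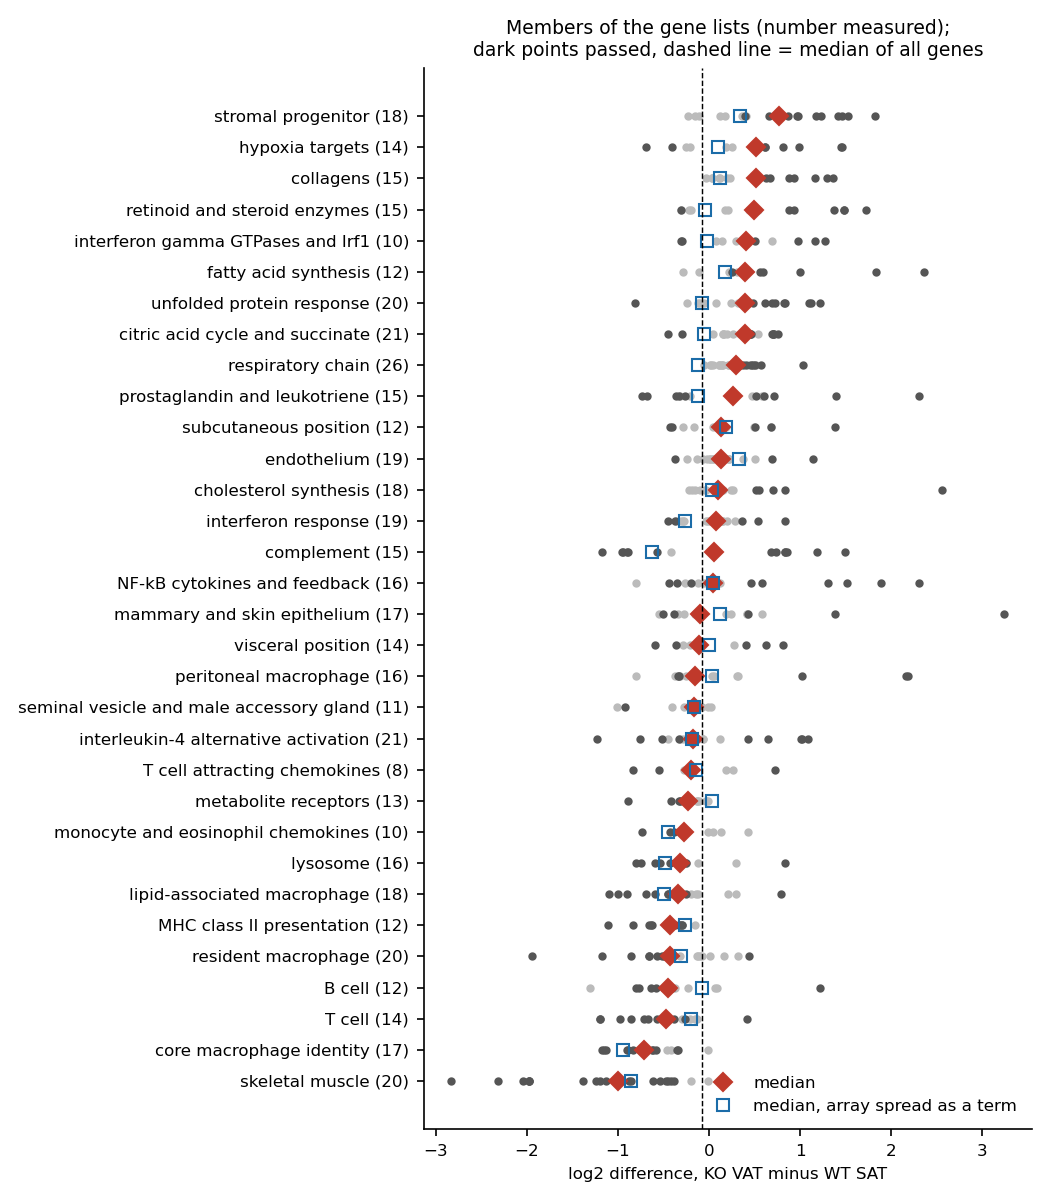
Log2 difference, KO VAT minus WT SAT, of each measured member of 32 gene lists (1 point per gene, dark where it passed), with the number measured in brackets, the list median (diamond), the median with array spread as a term (open square) and the median of all genes (dashed line, -0.08). Stromal progenitor genes have the highest median, 0.76, and skeletal muscle genes the lowest, -0.999; the squares of the core macrophage, lipid-associated macrophage and muscle lists stay well below the line, and those of the interferon gamma, retinoid and respiratory chain lists fall near it.

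Each day alone has 2 arrays in a group, and some of the genes described passed on 1 day and not on the other. On day 1 alone Ssty2, Astx6, Vmn1r148, Hoxb7, Sc5d, Me1, Hif1a, Adm, Suclg2 and Idh2 did not pass. Hif1a differed by 0.77 on day 1 and 0.85 on day 2, and Adm by 0.78 and 1.20. Suclg2 differed by 0.48 and 0.94, so that the second day carried more of its difference. On day 2 alone Pf4, Trem2 and Cd74 did not pass; Trem2 differed by -1.31 on day 1 and -0.88 on day 2, and Cd74 by -0.87 and -0.40. Ccl8 passed on neither day, at -0.82 and -0.64. All kept their sign on both days.

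The other crossed comparison, KO SAT minus WT VAT, uses the remaining 8 arrays and shares none with this one. It called 1178 genes (6.89%), 806 higher and 372 lower. Higher in both were 472 genes, 15.1% of the genes higher here and 58.6% of those higher there. Lower in both were 251, which is 6.999% and 67.5%, and 60 passed in opposite directions. Mean array spread differed in the same direction there, at 2.52 in KO SAT and 2.30 in WT VAT, although those 2 groups overlapped. The overlap of the 2 comparisons was not counted with the spread term, and the part of spread in it was not tested. A test of the difference between the 2 comparisons (limma) called 503 genes, of which 433 had passed here. Among the members described, that test called, besides others, Idi1 (2.53 more here, adjusted p = 1.0e-04), Acta1 (-2.63, adjusted p = 0.00088), Fcna (-1.64, adjusted p = 0.0014), Adh1 (1.70, adjusted p = 0.0033), Elovl6 (1.69, adjusted p = 0.0037), Fcgr3 (-1.36, adjusted p = 0.0045) and Lyz2 (-1.03, adjusted p = 0.011). It also called Svs4, Emx2, Folr2, Kif21a, Prg4, P2rx7, Lgi2, Akr1c18, Egln3 and Dsp. For Scd1 the difference of 1.16 did not pass (adjusted p = 0.16), and Scd1 was higher by 1.21 in KO SAT than in WT VAT (adjusted p = 0.028). Nfkbiz (0.85, adjusted p = 0.32) and Ptgs2 (1.70, adjusted p = 0.12) did not pass it either. Ssty2 was lower in both comparisons, with differences of -3.18 here and -2.86 there.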

How the data were processed

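The authors deposited log2 probe set values of Affymetrix mouse arrays with perfect-match probes. The submitters' processing notes name RMA and the affy package without versions. RMA in general subtracts background, normalizes the probes of the arrays given to it by quantiles and summarises them; whether all 16 arrays were summarised together is not given in the sources used here. Of 45141 probe sets 104 are controls, 28898 have 1 gene in the platform annotation, 551 have several and 15588 have none and were not used. Identifiers of 28689 matched RefSeq genes (GRCm38.p6), and 0 symbols changed. A gene took its probe set of highest mean over 16 arrays, a choice that touched 7180 of 17097 genes.

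Groups come from the labels. limma 3.58.1 in R 4.3.3 (lmFit, eBayes) was run on all 16 arrays with day as a covariate and without pool number. Two-sided p-values were adjusted over all genes (Benjamini-Hochberg), with 0.05 as the threshold. Arrays have no read depth, so their number limits precision.

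Genes named are the 12 largest rises and 12 largest falls among those that passed with an equal sign on each day (gene models with no name left out), at most 4 members per list by smallest p, the 4 widest-ranging members of the lists that check labels, Sucnr1 and Lyz2. The comparison, the lists and the alternatives were chosen with earlier results of these data known, so that no list is independent support for its own direction.

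The fit was repeated without day, within each day, with pool number as a block, on the 8 arrays alone, after removing the lowest 40% of genes by mean, with other rules for joining probe sets, with other scalings, with array weights, with trend and robust options, with array spread in the model, and with single arrays left out.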

Additional observations from a re-analysis of the deposited data

Results flagged for a closer look

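Of 302 groups of 4 values examined, 7 held 1 array that lay apart from the other 3 (Dixon's test at the 95% level). Chance alone flags about 1 in 20 such groups. In WT SAT pool 2, Svs4 was at 7.303 beside 3.791 to 4.054 on the other arrays of the group, Svs2 at 4.654 beside 3.491 to 3.62, and Bnc2, a zinc finger gene of stromal cells, at 5.167 beside 5.605 to 5.686. In WT SAT pool 1, Fcna was at 7.356 beside 7.745 to 7.752. In WT SAT pool 3, Ifih1, a sensor of double-stranded RNA, was at 7.954 beside 7.622 to 7.66. In WT SAT pool 4, Fn1, fibronectin, was at 7.156 beside 7.912 to 8.067. In KO VAT pool 3, Hoxb7 was at 5.005 beside 5.497 to 5.519.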

How the results depend on the processing

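The number of genes that passed was 6717 (3131 higher, 3586 lower, or 46.6% higher). It was 4426 without the day term (2150 lower), 1702 on day 1 alone (1126 higher, 576 lower; 1659 also in the first fit) and 1859 with array spread as a term (595 higher, 1264 lower; 32.0% higher; 951 also in the first fit). A filter of the lowest 40% of genes left 1727 lower (62.3% higher) and centring on array medians 2079 (62.5% higher). Leaving out 1 array gave 3851 to 7563 passed, 2074 to 3555 higher and 1777 to 4008 lower; the fewest came without WT SAT pool 4, then KO VAT pool 1, and without KO VAT pool 3 those lower were 2276. The number past 2-fold was 603; it was 976 on day 2 alone, 381 with the mean of a gene's probe sets, 168 with array spread as a term and 399 to 840 with 1 array left out. By their labels the WT SAT and KO VAT pools are of different genotypes and so of different mice. The deviations of their same-numbered pools correlated at 0.25, -0.17, -0.11 and 0.53. Whether SAT and VAT pools of 1 genotype share mice is not given. With pool number as a fixed replicate block 6047 genes passed, and with a random one 6081. The causes of these changes were not tested.

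Of 137 named genes that passed, 64 did so under every alternative listed in the processing in which they were tested. Genes removed by the filter of the lowest 40% were not tested in that fit. Of the 137, 55 did not pass with array spread in the model, 40 on day 1 alone, 21 on day 2 alone and 17 with 1 array left out. Genes that turned sign under an alternative had small differences in most cases. With arrays centred and scaled, values were 0.25 for Sucnr1, 0.063 for Svs2, 0.16 for Svs3a, 0.080 for Sbp, 0.020 for Cxcl11, -0.097 for Ifit1, -0.23 for Mdh2, -0.16 for Cox5a, -0.61 for Pdpn and -0.31 for Adh7. With array spread as a term they were 0.034 for Sucnr1, 0.0037 for Nr5a1, 0.0044 for Sbp, 0.037 for Adora3 and -0.14 for Adh7. With quantile normalization they were 0.037 for Sucnr1, 0.00094 for Svs3a and -0.029 for Adh7, and with median centring 0.074 for Sucnr1 and 0.012 for Svs3a. Sucnr1 was 0.026 on day 1 alone and between -0.038 and 0.0081 with 1 array left out, above 0 without WT SAT pool 4 (0.0031) or KO VAT pool 4. On day 2 alone Svs6, Svs2 and Svs3a were 0.025, 0.11 and 0.038, and without WT SAT pool 2 Svs2 and Svs3a were 0.066 and 0.0041.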
